A study of Rattus norvegicus with 20 samples.

Results

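The S100 proteins are small calcium-binding proteins of the EF-hand family. The rat genes measured here are S100b, S100a4, S100a10, S100a1, S100a8 and S100a9. All probe sets that the array annotation gives to 1 of these symbols were taken, whatever their values, which gave 6 of the 4736 genes measured and 10 of the 8740 probe sets tested. The probe sets are 2 for S100b, 4 for S100a1 and 1 for each of the other 4 genes, and 0 probe sets carry a member symbol together with another gene.

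Most S100 proteins work as dimers that change shape when they bind calcium and then dock on partner proteins of the cytoskeleton and the membrane. Some are also released from cells and act on receptors such as the receptor for advanced glycation end products. In the nervous system S100b is widely used as an astrocyte marker, although oligodendrocyte precursors and Schwann cells also make it.

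The arrays come from cultured rat neural progenitors and cells derived from them. RA/Fsk cells are low-density CCg progenitors given RA/Fsk with the stated aim of neurons (4 cultures), and FBS cells are the same progenitors given FBS with the stated aim of astrocytes (4 cultures). HD cells are progenitors at high density (3 cultures), and LD cells are the low-density CCg progenitors without either treatment (3 cultures). FBS usually stands for fetal bovine serum, RA for retinoic acid and Fsk for forskolin, an activator of adenylyl cyclase. The labels give no strain, age, dose or duration, do not expand CCg, and do not mention CCg for the HD cells. The 20 arrays were reduced to 14 cultures by averaging same-numbered arrays within a group. The labels do not say whether each number is a culture grown separately, so a p-value here reflects only how far these samples scatter, which may be technical.

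The deposited intensities are on a linear scale, no detection calls were used, and array medians lie between 41 and 57.5. The names of the derived cells were checked against marker lists. Of 12 measured astrocyte markers, 5 rose with FBS, among them Slc1a3, Glul and Agt, and 0 fell, while Aqp4 differed by -0.62 ± 0.37 log2 (SE, adjusted p = 0.251) without passing. Of 10 measured neuron markers, 0 rose with RA/Fsk and 1, the growth cone protein gene Gap43, fell. Relative to LD, 13.2% of all probe sets rose and 12.3% fell with FBS, and 4.71% rose and 3.54% fell with RA/Fsk. The neuron counts are near those shares for so few genes, so nothing about neurons is read from them. Across the named types, the astrocyte markers Glul (1.40 ± 0.17 log2) and Aldoc (1.77 ± 0.16) rose with RA/Fsk and Cst3 fell, and the neuron marker Nefm rose with FBS (2.26 ± 0.58 log2). Gfap was not analysed here. These are RNA levels of whole cultures, in which more cells of a type and more RNA per cell cannot be told apart.

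S100b was high in both treated groups. Its brighter probe set (probe set 1) had 2191.5, 2563.9, 2352.0 and 2326.2 intensity units in RA/Fsk cultures 1 to 4. FBS cultures 1 to 4 had 1503.5, 2413.1, 2143.7 and 1659.4, HD cultures 1, 2 and 4 had 379.2, 483.7 and 651.5, and LD cultures 1, 3 and 4 had 334.9, 295.2 and 336.1. All 8 treated cultures lie above all 6 progenitor cultures, the RA/Fsk and FBS cultures overlap, and each HD culture lies above each LD culture. The means were 2358 ± 154 in RA/Fsk and 1930 ± 422 in FBS (SD, n = 4 each), with 505 ± 137 in HD and 322 ± 23.3 in LD (SD, n = 3 each).

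Relative to LD, S100b rose 7.23-fold with RA/Fsk (2.85 ± 0.18 log2, SE, adjusted p = 4.03e-08) and 5.82-fold with FBS (2.54 ± 0.18 log2, adjusted p = 2.88e-08). Here and below, differences are of log2(intensity + 4.99), the group named first minus the other, and a probe set passed at an adjusted p under 0.05 over all 8740. Relative to HD it rose 4.75-fold with RA/Fsk (2.25 ± 0.18 log2, adjusted p = 7.2e-07) and 3.82-fold with FBS (1.93 ± 0.18 log2, adjusted p = 7.24e-07). The direct comparison of RA/Fsk with FBS gave 0.31 ± 0.17 log2 (adjusted p = 0.237, 95% interval -0.04 to 0.67). RA/Fsk cultures thus carried 1.24 times the FBS level, a difference that did not pass. The order of S100b levels was RA/Fsk, FBS, HD and LD, and of the neighbours in it only FBS and HD differed past the threshold. HD exceeded LD 1.52-fold (0.61 ± 0.19 log2, adjusted p = 0.164).

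The other S100b probe set (probe set 2) is dim, between 9.7 and 73.9 units over the 20 arrays. Its means were 49.3 ± 22.1 in RA/Fsk, 30.2 ± 21.6 in FBS, 18.3 ± 8.47 in HD and 15.7 ± 5.28 in LD. It differed by 1.33 ± 0.45 log2 between RA/Fsk and LD (adjusted p = 0.085), with cultures that did not overlap, and by 0.58 ± 0.45 between FBS and LD (adjusted p = 0.4), with cultures that did. Neither passed, so the S100b calls rest on the brighter probe set. Over all probe sets, the mean of probe set 1 stands at percentile 94.0 and that of probe set 2 at percentile 36.9.

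Marker lists of other glia that make S100b were read beside it. Of all probe sets, 4.71% rose and 3.54% fell with RA/Fsk relative to LD, and 13.2% rose and 12.3% fell with FBS. Of 8 measured oligodendrocyte markers 2 rose with RA/Fsk, the myelin genes Mbp (2.45 ± 0.49 log2) and Cnp (0.78 ± 0.15 log2), and 0 fell. With FBS Mbp rose by 1.46 ± 0.49 log2 and Pdgfra, a receptor gene of oligodendrocyte precursors, fell by 2.51 ± 0.28 log2. The list summed to 2766 to 4774 units in RA/Fsk, 1687 to 2132 in FBS, 2241 to 2774 in HD and 2139 to 2869 in LD, with 2 of the 8 below the array median on all arrays.

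Of 7 measured Schwann cell markers 2 rose with RA/Fsk, among them the myelin regulator Egr2 (3.31 ± 0.40 log2), and 1, Gap43, fell. With FBS 2 rose, again with Egr2 (2.79 ± 0.40 log2). That list summed to 1645 to 2909 units in RA/Fsk, 2370 to 3677 in FBS, 1917 to 2761 in HD and 2008 to 2236 in LD, with 0 of the 7 below the array median throughout. The astrocyte list summed to 11190 to 12249 units in RA/Fsk, 17394 to 20736 in FBS, 13809 to 20847 in HD and 13709 to 17123 in LD, with 4 of its 12 genes below the array median on all arrays. Sums of intensities are weighted to the brightest genes. In this list that is Cst3, at mean log2 values of 12.3 in RA/Fsk and 13.6 in LD. The list median of RA/Fsk minus LD was 0.16 log2, so the lower RA/Fsk sum does not describe the list as a whole. No marker of the 3 lists had a value of 0, and their part in the S100b result was not tested.

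S100a4 showed the widest range of the 6 genes. Its product binds non-muscle myosin, and in fibroblasts and motile cells it is tied to cell movement. RA/Fsk cultures had 121.1, 110.3, 189.6 and 99.6 units. FBS cultures had 1374.6, 1027.9, 1188.8 and 1391.2, HD cultures 48.4, 52.5 and 55.7, and LD cultures 74.0, 57.6 and 36.4. FBS stands far above every other group, RA/Fsk lies between it and both progenitor groups without overlap, and HD and LD overlap.

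FBS raised S100a4 21.0-fold over LD (4.39 ± 0.23 log2, adjusted p = 9.83e-10), which is the 33rd largest of the 8740 differences, and 21.7-fold over HD (4.44 ± 0.23 log2, adjusted p = 1.3e-09). RA/Fsk raised it 2.24-fold over LD (1.16 ± 0.23 log2, adjusted p = 0.00441) and 2.30-fold over HD (adjusted p = 0.00296). RA/Fsk stood below FBS by -3.23 ± 0.21 log2 (adjusted p = 1.52e-08), or 9.41-fold lower. HD minus LD was -0.04 ± 0.25 log2 (adjusted p = 0.959, 95% interval -0.57 to 0.48). The pseudocount of 4.99 makes a fold of a dim group smaller than the ratio of raw means, which were 1246 ± 172 in FBS and 56.0 ± 18.9 in LD.

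**Figure D1:**
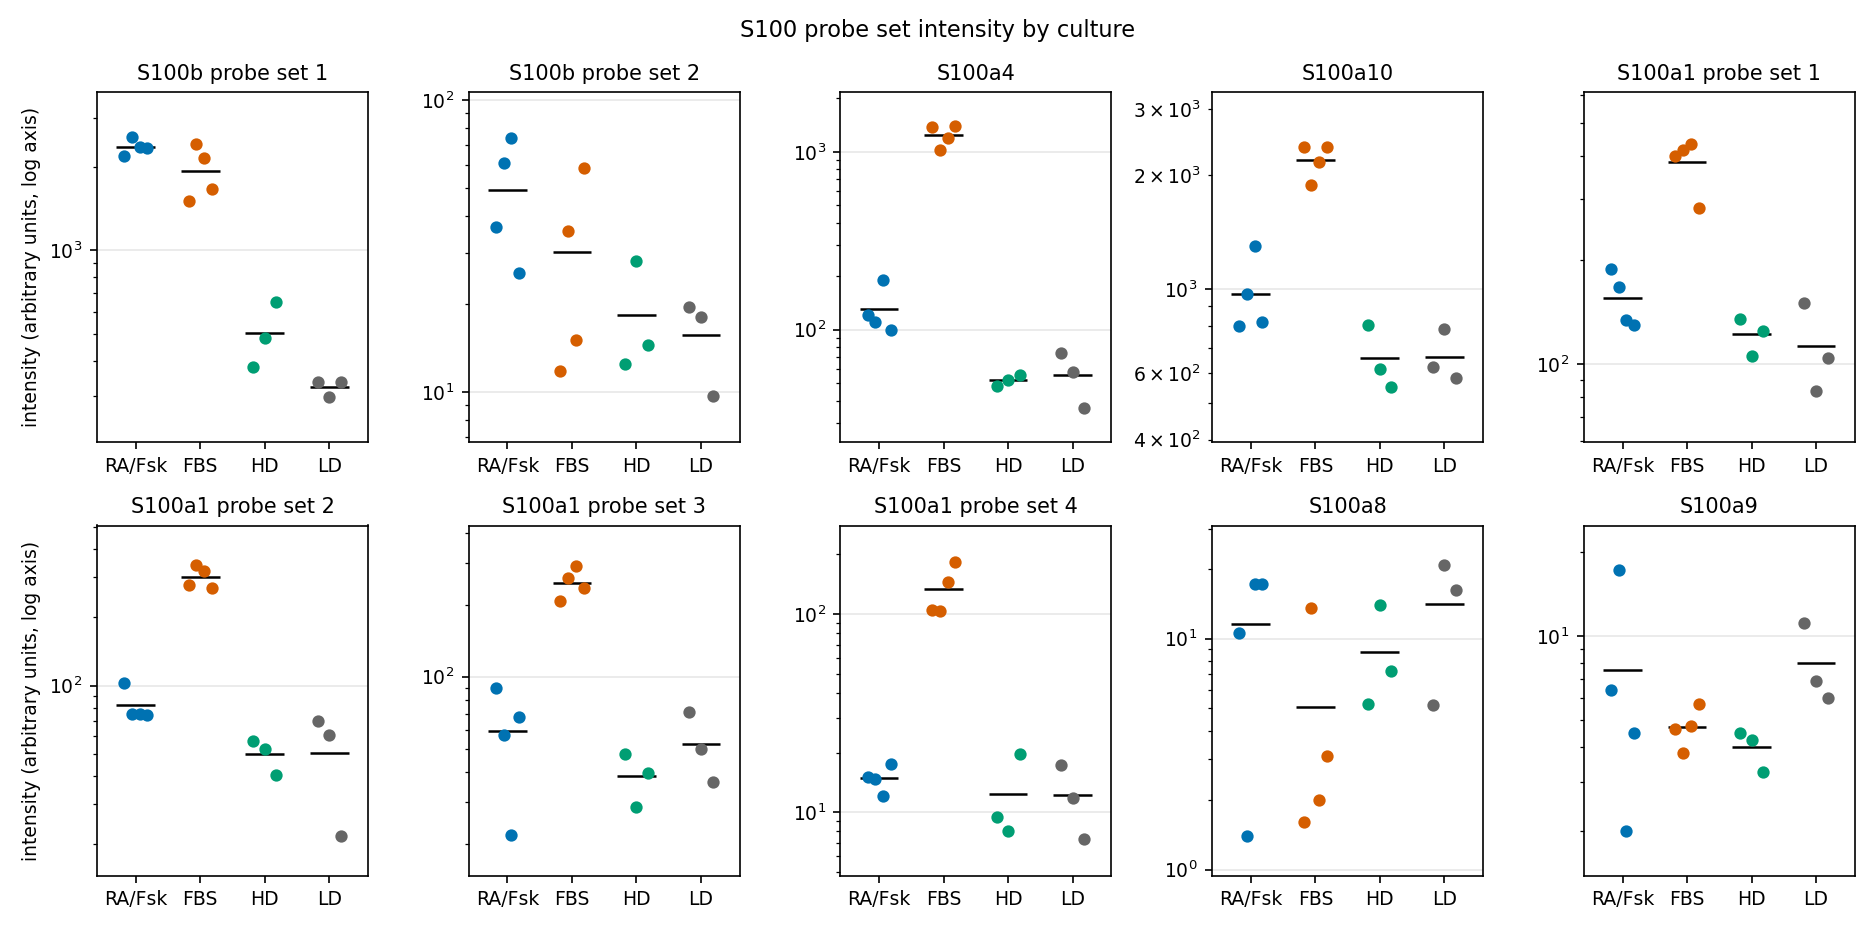
Intensity of each S100 probe set (vertical log axis, arbitrary units) in every culture, by group. Each point is 1 culture and each bar the mean of its group, with 4 RA/Fsk, 4 FBS, 3 HD and 3 LD cultures; S100b probe set 1 is high in both treated groups, whereas S100a4, S100a10 and the 4 S100a1 probe sets are highest in FBS.

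Promoters are shown for S100b and S100a4 because RA/Fsk and FBS differed past the threshold for S100a4 and not for S100b. They run from 250 bases before to 50 bases after the gene start, 5′ to 3′ on the strand of the gene, in RefSeq assembly GRCr8, at chr20:12381032-12381331 on the minus strand for S100b and at chr2:178388279-178388578 on the plus strand for S100a4. Capitals mark the motifs found.
S100b: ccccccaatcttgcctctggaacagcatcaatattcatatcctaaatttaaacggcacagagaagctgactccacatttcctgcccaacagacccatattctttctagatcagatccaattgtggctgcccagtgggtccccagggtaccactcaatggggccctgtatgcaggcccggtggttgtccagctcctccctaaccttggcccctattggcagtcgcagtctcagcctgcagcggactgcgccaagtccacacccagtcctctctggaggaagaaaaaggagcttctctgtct
S100a4: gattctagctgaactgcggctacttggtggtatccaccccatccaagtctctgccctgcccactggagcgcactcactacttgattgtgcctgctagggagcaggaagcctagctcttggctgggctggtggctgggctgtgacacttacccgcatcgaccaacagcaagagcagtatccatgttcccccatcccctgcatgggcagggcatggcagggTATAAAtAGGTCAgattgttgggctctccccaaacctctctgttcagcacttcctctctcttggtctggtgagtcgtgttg
The search covered TGANTCA (AP-1), TGACG (a CRE half-site), AGGTCA (a nuclear receptor half-site), the CArG box and TATAAA on both strands. In S100a4, TATAAA begins at base -31 and AGGTCA at base -24 from the start, both on the strand of the gene and separated by a single base. The letters of the 5 motifs are not in the S100b window. TATAAA occurs in 14.2% of the 33469 promoters of this length and AGGTCA in 16.2%, against 7.33% for AP-1, 21.2% for the CRE half-site and 1.64% for the CArG box. The table matched 3 of the 6 genes, S100b, S100a4 and S100a9, and the S100a9 window also holds TATAAA. S100a10, S100a1 and S100a8 had no entry.

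S100a10 rose with FBS. It encodes an S100 protein whose calcium-binding loops have lost their function and which forms a complex with annexin A2 at the plasma membrane. RA/Fsk cultures had 799.2, 972.3, 1302.7 and 817.9 units, while FBS cultures had 2374.9, 1882.1, 2168.9 and 2377.1. HD cultures had 801.8, 615.0 and 550.7, and LD cultures 621.5, 782.3 and 583.6. FBS overlaps with no other group, RA/Fsk lies above LD without overlap but overlaps with HD by the level of HD culture 1, and HD and LD overlap.

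The rise with FBS was 3.30-fold over LD (1.72 ± 0.18 log2, adjusted p = 1.92e-06) and 3.35-fold over HD (1.74 ± 0.18 log2, adjusted p = 2.04e-06). RA/Fsk minus LD was 0.53 ± 0.18 log2 (adjusted p = 0.0784), which did not pass. With the culture number as a block, it was 0.57 ± 0.17 log2 and passed (adjusted p = 0.0495). That block ties same-numbered cultures of all groups, HD and FBS included, and not only RA/Fsk with LD. The difference also passed without RA/Fsk culture 1 (0.62 ± 0.18 log2, adjusted p = 0.0463) and when arrays were not averaged into cultures (adjusted p = 0.0368). RA/Fsk minus FBS was -1.19 ± 0.16 log2 (adjusted p = 6.62e-05). HD minus LD was -0.02 ± 0.19 log2 (adjusted p = 0.973, 95% interval -0.42 to 0.38).

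The partner gene Anxa2, singled out for its tie to S100a10 after its values were seen, was read from a single probe set. It rose with FBS by 2.86 ± 0.32 log2 (adjusted p = 3.82e-06). RA/Fsk minus LD was 0.98 ± 0.32 log2 (adjusted p = 0.0683, 0.0198 to 0.166 over the alternatives). Anxa2 was lower in RA/Fsk than in FBS by -1.87 ± 0.29 log2 (adjusted p = 0.000202). HD minus LD was 0.42 ± 0.34 log2 for Anxa2 (adjusted p = 0.631), beside -0.02 for S100a10. Plat encodes the tissue plasminogen activator, a protease that the S100a10 and annexin A2 complex can hold at the cell surface. Relative to LD, Plat rose by 3.02 ± 0.24 log2 with RA/Fsk (adjusted p = 5.74e-07) and by 4.07 ± 0.24 with FBS (adjusted p = 3.67e-09). It is dim in LD, at a mean log2 of 4.91. Over the alternatives the differences ran from 2.25 to 3.21 with RA/Fsk and from 3.22 to 4.27 with FBS. HD minus LD was 1.06 ± 0.26 log2 for Plat (adjusted p = 0.0647).

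S100a1 rose with FBS in all 4 of its probe sets. The protein is best known from heart and skeletal muscle, where it acts on calcium release and uptake by the sarcoplasmic reticulum. Probe set 1, the brightest, had means of 155 ± 27.9 in RA/Fsk, 384 ± 68.5 in FBS, 122 ± 15.2 in HD and 113 ± 34.2 in LD. Probe set 2 had 103.2, 74.7, 75.3 and 74.1 units in RA/Fsk cultures and 278.3, 340.4, 321.3 and 268.1 in FBS cultures, with 56.9, 52.7 and 40.4 in HD cultures and 69.6, 60.4 and 21.7 in LD cultures. Here the FBS cultures stand apart, and the HD and LD cultures overlap. Probe set 3 had means of 59.2 ± 28.5 in RA/Fsk, 248 ± 35.4 in FBS, 38.6 ± 9.71 in HD and 52.4 ± 17.5 in LD. Probe set 4, the dimmest, had 14.9 ± 2.25 in RA/Fsk, 134 ± 38.2 in FBS, 12.4 ± 6.37 in HD and 12.2 ± 5.03 in LD. For all 4 probe sets the FBS cultures lie above every other culture, and probe sets 3 and 4 were designed from the same sequence tag and so are not independent.

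FBS minus LD was 1.74 ± 0.21 log2 for probe set 1 (adjusted p = 9.66e-06), 2.60 ± 0.29 for probe set 2 (adjusted p = 3.88e-06), 2.18 ± 0.35 for probe set 3 (adjusted p = 0.000154) and 3.03 ± 0.32 for probe set 4 (adjusted p = 2.37e-06). All 4 probe sets share the direction. The size for probe set 4 depends on the pseudocount, since its RA/Fsk, HD and LD cultures read at most 19.7 units, too low to be told from background; its FBS minus LD difference was 1.89 log2 with a pseudocount of 32 and 3.40 with 1. Relative to HD the rises were 1.62 to 3.05 log2, and all 4 passed. RA/Fsk minus FBS ran from -2.78 to -1.28 log2, and all 4 passed. RA/Fsk minus LD was 0.46, 0.77, 0.08 and 0.25 log2 for probe sets 1 to 4, with adjusted p of 0.12 to 0.938. None passed, and probe set 2 alone had RA/Fsk cultures (74.1 to 103.2) that lay above all LD cultures (21.7 to 69.6). HD minus LD lay between -0.38 and 0.12 log2 with adjusted p of 0.692 to 0.986.

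S100a8 and S100a9 stayed dim in all cultures. Their products pair as calprotectin, an abundant protein of neutrophils and monocytes. S100a8 had culture values of 1.4 to 17.3 units in RA/Fsk, 1.6 to 13.6 in FBS, 5.2 to 13.95 in HD and 5.15 to 20.8 in LD. S100a9 had 2.0 to 17.2 in RA/Fsk, 3.8 to 5.7 in FBS, 3.25 to 4.5 in HD and 6.0 to 11.15 in LD, which lies above the FBS and HD cultures without overlap. Every one of the 20 arrays reads at most 23 units for S100a8 and at most 17.2 for S100a9, below the lowest array median of 41, and the probe set means stand at percentiles 14.4 and 8.94. None of the 12 tests of these 2 genes passed. FBS minus LD was -0.96 ± 0.46 log2 for S100a8 (adjusted p = 0.157) and -0.41 ± 0.30 for S100a9 (adjusted p = 0.369). S100a8 reached an adjusted p of 0.0472 without FBS culture 2, the highest FBS culture, at -1.30 ± 0.45 log2. Without detection calls, values this low cannot be told from background, so no level is read from them.

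The myeloid and microglial marker list was read beside S100a8 and S100a9. Its 11 measured genes of 21 summed to 347 to 541 units in RA/Fsk, 381 to 494 in FBS, 443 to 567 in HD and 515 to 665 in LD. Of the 11 genes, 5 lay below the array median on all 20 arrays and 0 had a value of 0 on any array. Coro1a, an actin-binding protein gene of leukocytes, fell with FBS and with RA/Fsk, and the other 10 did not pass in either comparison. Of all probe sets, 12.3% fell with FBS and 3.54% with RA/Fsk relative to LD.

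Of the 10 S100 probe sets, 7 rose with FBS relative to LD and 0 fell. Of these 7, 4 belong to the single gene S100a1, so counts and medians of S100 probe sets are weighted to it. The others are S100b probe set 1, S100a4 and S100a10. The family gene S100g, outside the members, fell with FBS at its brighter probe set. Of all 8740 probe sets 13.2% rose in that comparison and 12.3% fell. The S100 median was 1.96 log2 against -0.09 over all probe sets. With RA/Fsk 2 rose relative to LD, S100b probe set 1 and S100a4, and 0 fell, beside 4.71% and 3.54% of all probe sets, with medians of 0.50 log2 for S100 and -0.05 for all. Both comparisons use the same LD cultures. These counts come from the fit without a block on culture number. With that block S100a10 also passed between RA/Fsk and LD (0.57 ± 0.17 log2, adjusted p = 0.0495).

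Between RA/Fsk and FBS, 6 were lower in RA/Fsk and 0 were higher, with backgrounds of 10.1% and 8.27% and medians of -1.23 log2 for S100 and 0.06 for all. The 6 are S100a4, S100a10 and the 4 S100a1 probe sets. Relative to HD, 7 rose with FBS and 0 fell, where 11.3% of all probe sets rose and 9.7% fell. With RA/Fsk 2 rose relative to HD and 0 fell, where 4.85% rose and 5.32% fell. These are the probe sets that rose relative to LD. Between HD and LD 0 passed in limma, where 0.435% of all probe sets were higher and 0.423% lower in HD. Of the 10, S100b probe set 1 had the smallest unadjusted limma p there, at 0.00601. The brighter probe set of S100g, outside the members, had 0.00382. Cultures did not overlap for 8 of 10 between FBS and LD (35.4% of all probe sets), for 5 between RA/Fsk and LD (15.5%), for 6 between RA/Fsk and FBS (21.5%), for 2 between HD and LD (19.7%), for 7 between FBS and HD (32.4%) and for 4 between RA/Fsk and HD (18.3%).

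**Figure D2:**
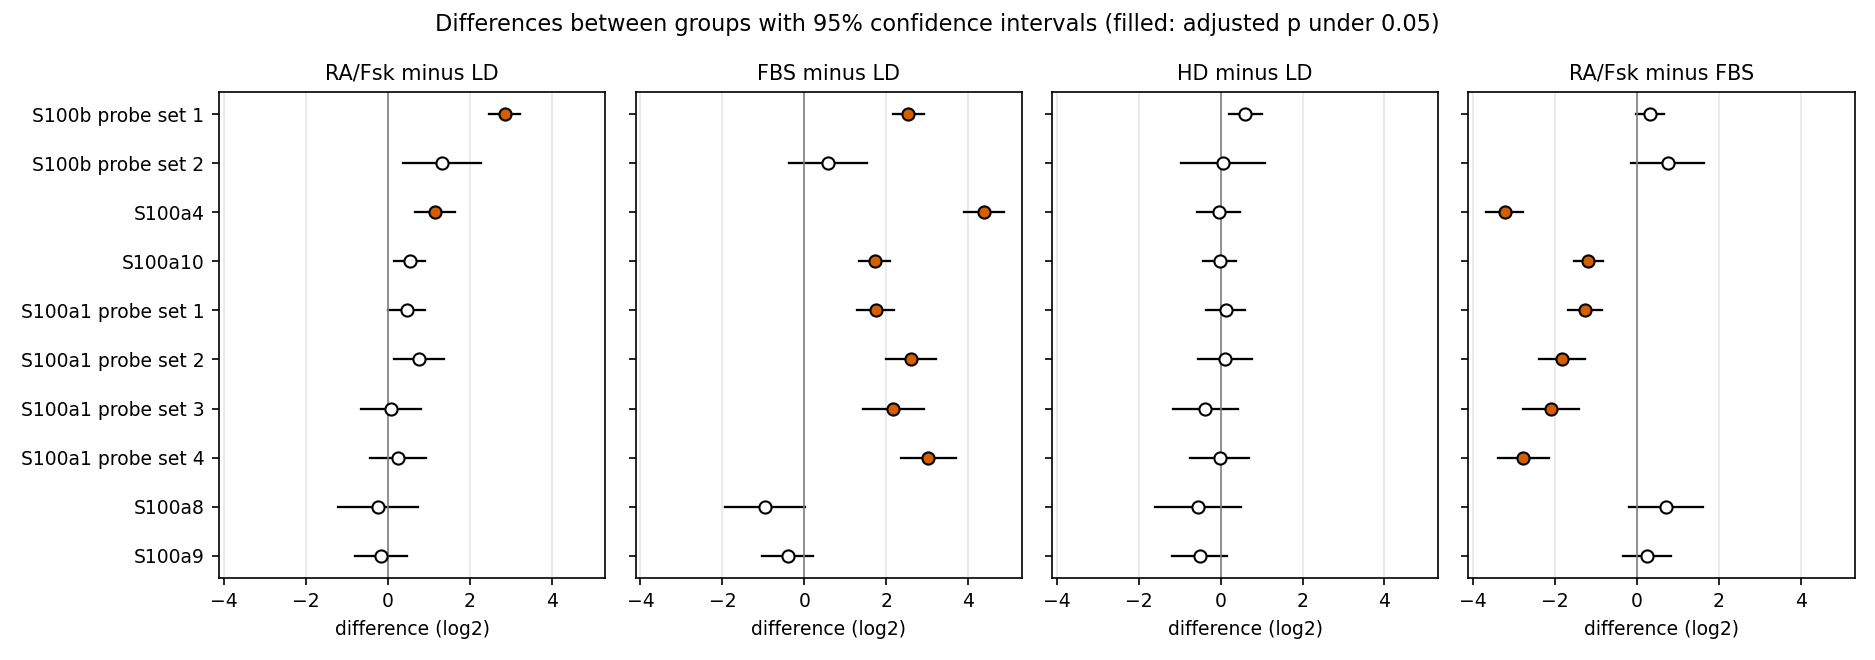
Difference of each S100 probe set (horizontal axis, log2) for 4 comparisons. Circles are estimates, lines their 95% confidence intervals, and filled circles passed; 2 are filled for RA/Fsk minus LD, 7 for FBS minus LD, 0 for HD minus LD and 6 for RA/Fsk minus FBS.

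The GAPDH control probe sets give a measure of RNA integrity, the log2 ratio of 5′ to 3′ signal. It ran from -0.47 to -0.11 in RA/Fsk, from -0.16 to -0.01 in FBS, from -0.20 to 0.05 in HD and from -0.47 to -0.21 in LD, so that neither FBS nor HD overlaps with LD. With this ratio as a covariate the counts of S100 probe sets that passed were 2 with RA/Fsk and 7 with FBS relative to LD and 0 in HD relative to LD, as without it.

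**Figure D3:**
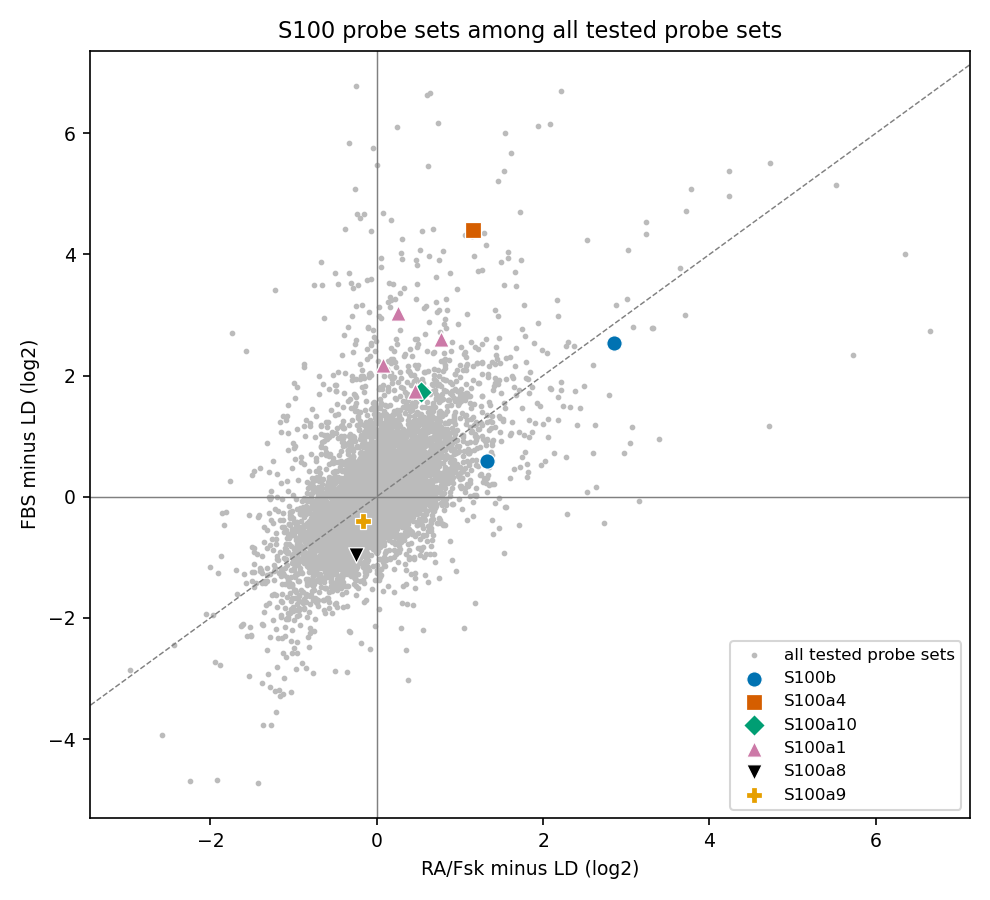
Difference with RA/Fsk (horizontal axis, log2 relative to LD) against difference with FBS (vertical axis, log2 relative to LD) for all 8740 tested probe sets (grey) and the 10 S100 probe sets (coloured symbols). The dashed line marks equal differences; S100b lies below it, S100a4, S100a10 and S100a1 lie above it, and S100a8 and S100a9 have differences below 0 on both axes. Both axes share the LD cultures.

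Genes other than S100 with a pattern near that of a member were named for the 5 probe sets whose group means span 2 log2 or more. Likeness was the root mean square distance between log2 values over the 14 cultures, each probe set centred on its own mean. Nearest to S100b probe set 1 were Triobp, an actin-bundling protein gene, at 0.31 log2, then Faim2, Lpar1, Cxcl14 and Maf at 0.40 to 0.46. Triobp differed from LD by 2.60 with RA/Fsk, 2.18 with FBS and 0.48 in HD. Lpar1 encodes a receptor for lysophosphatidic acid.

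Nearest to S100a4 were Rasl11b, Anxa5, the matrix protein genes Postn and Sparc, and the small heat shock protein gene Cryab, at 0.43 to 0.52 log2. Postn had differences from LD of 1.14 with RA/Fsk, 4.31 with FBS and 0.00 in HD, beside 1.16, 4.39 and -0.04 for S100a4. For S100a1, Slc41a3 was among the 5 nearest to probe sets 2 and 3 at 0.33 and 0.39 log2, and Npr3 was nearest to probe set 4 at 0.30 and Vcam1 to probe set 3 at 0.37. The calcium buffer gene Calb1 was among the 5 nearest to probe set 4, at 0.37. Sparc is an uneven case, since the probe set near S100a4 differed by 5.21 log2 between FBS and LD, whereas the brightest Sparc probe set differed by 0.67.

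Of 51 listed genes for partners, targets and receptors of S100 proteins, 38 were measured, each taken at its brightest probe set. With RA/Fsk 4 rose and 3 fell relative to LD, at a median of -0.02 log2, and with FBS 13 rose and 5 fell, at a median of 0.32. As shares of the 38 genes these are 10.53% and 7.89% with RA/Fsk and 34.2% and 13.2% with FBS, beside 4.71% and 3.54%, and 13.2% and 12.3%, of all probe sets. RA/Fsk was lower than FBS for 14 genes and higher for 4. Of the annexin genes, Anxa1, whose product binds S100A11 in human cells, rose with FBS by 5.76 ± 0.30 log2 (adjusted p = 8.48e-10), and its RA/Fsk minus LD difference was -0.04 ± 0.30 (adjusted p = 0.962). Anxa5 rose with both, by 1.22 ± 0.15 log2 with RA/Fsk and 3.72 ± 0.15 with FBS. Anxa6, singled out as an annexin after its values were seen, fell by 1.37 ± 0.24 log2 with RA/Fsk and by 2.12 ± 0.24 with FBS.

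The list also holds genes of the contractile cytoskeleton. The contractile light chain gene Myl9 rose by 2.52 ± 0.37 log2 with RA/Fsk and by 4.24 ± 0.37 with FBS, Myl12a by 2.33 ± 0.18 with FBS, and Tpm1 by 0.92 ± 0.16 with FBS. Relative to FBS, RA/Fsk was lower by -2.75 ± 0.16 log2 for Myl12a and by -1.24 ± 0.15 for Tpm1. Fgfr1 rose with both relative to LD, by 1.64 ± 0.27 log2 with RA/Fsk and by 1.97 ± 0.27 with FBS. Its HD minus LD difference was 1.18 ± 0.28 log2 (adjusted p = 0.0635). Relative to HD it differed by 0.46 ± 0.27 log2 with RA/Fsk (adjusted p = 0.354) and by 0.79 ± 0.27 with FBS (adjusted p = 0.0451). The latter call ended under 13 alternatives. The genes of receptors for released S100 proteins, singled out after their values were seen, did not pass between either treatment and LD. Ager, which encodes the receptor for advanced glycation end products, differed by -0.19 ± 0.27 log2 with RA/Fsk and -0.39 ± 0.27 with FBS. Tlr4 differed by 0.09 with RA/Fsk and 0.11 with FBS, and Cd36 by 0.17 with RA/Fsk and -0.47 with FBS. These genes are dim in LD, at mean log2 values of 4.93 for Ager, 3.45 for Tlr4 and 3.16 for Cd36. Without detection calls, neither a level nor an unchanged level is read from them.

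**Figure D4:**
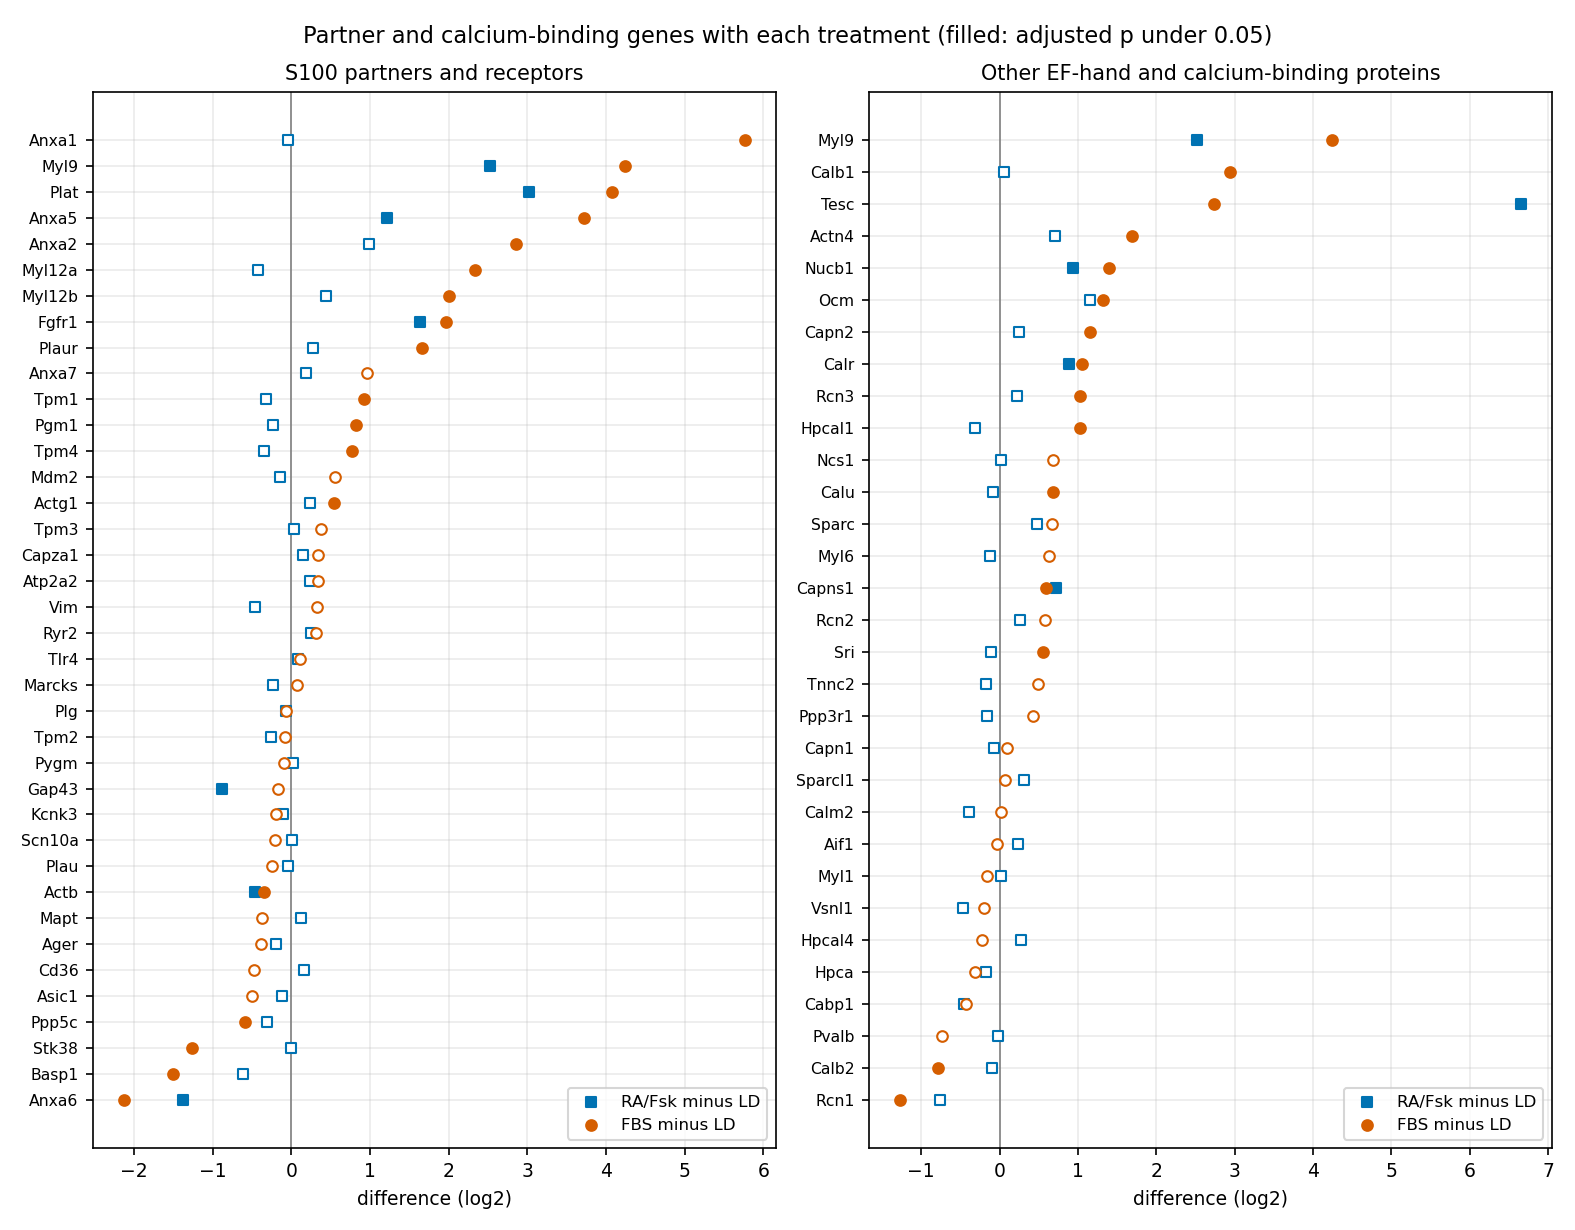
Difference from LD (horizontal axis, log2) with RA/Fsk (squares) and FBS (circles) for 38 genes of S100 partners and receptors on the left and 31 genes of other EF-hand and calcium-binding proteins on the right, ordered by the FBS difference. Filled symbols passed; Myl9 is on both lists, and Tesc is the gene of the right panel that stands furthest out with RA/Fsk.

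Other EF-hand and calcium-binding proteins were listed as 54 genes, of which 31 were measured. With RA/Fsk 5 rose and 0 fell relative to LD at a median of 0.02 log2, and with FBS 13 rose and 2 fell at a median of 0.58. As shares of the 31 genes these are 16.1% and 0% with RA/Fsk and 41.9% and 6.45% with FBS, beside the same shares of all probe sets. RA/Fsk was lower than FBS for 11 genes (35.5%) and higher for 2 (6.45%), beside 10.1% and 8.27% of all probe sets. Calb1, the buffer calbindin, rose with FBS by 2.94 ± 0.37 log2 (adjusted p = 1.54e-05), and its RA/Fsk minus LD difference was 0.05 ± 0.37 (adjusted p = 0.961). Tesc, an EF-hand protein gene, rose by 6.65 ± 0.32 log2 with RA/Fsk and 2.74 ± 0.32 with FBS, and was higher in RA/Fsk than in FBS by 3.91 ± 0.30 (adjusted p = 7.55e-08). Tesc, Calb1 and Anxa1 are dim in LD, at mean log2 values of 4.08, 3.55 and 4.39, so the sizes of their rises depend on the pseudocount. Over the alternatives the Tesc difference from LD ran from 5.24 to 7.11 log2 with RA/Fsk and from 1.64 to 3.16 with FBS, and with FBS that of Calb1 ran from 1.57 to 3.57 and that of Anxa1 from 4.58 to 6.09. The calcium-binding Golgi protein gene Nucb1 rose with both, by 0.94 ± 0.16 log2 with RA/Fsk and 1.39 ± 0.16 with FBS.

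S100a4 is also made by fibroblasts, so a fibroblast and mesenchymal marker list was read beside it. Its 13 measured genes of 14 summed to 474 to 653 units in RA/Fsk, 3122 to 5102 in FBS, 382 to 499 in HD and 469 to 546 in LD. With RA/Fsk 1 rose, Col5a1, and 0 fell, while with FBS 5 rose, Fn1, Postn, Tagln, Col5a1 and Vcam1, and 1, Thy1, fell. The other 12 genes did not pass with RA/Fsk, nor did the other 7 with FBS, and the list medians were -0.18 log2 with RA/Fsk and 0.53 with FBS. Of all probe sets, 4.71% rose and 3.54% fell with RA/Fsk relative to LD, and 13.2% rose and 12.3% fell with FBS. Of the 13 genes, 4 lay below the array median on all arrays and 0 had a value of 0. Their part in the S100a4 result was not tested.

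Among S100 genes outside the 6, S100g and S100a7l2 had probe sets. S100g encodes calbindin-D9k, the small vitamin D-dependent calcium carrier. Its brighter probe set had 41.3 to 76.9 units in RA/Fsk, 43.9 to 75.9 in FBS, 62.0 to 68.6 in HD and 110.0 to 129.5 in LD, so that LD lies above all other cultures. It fell with FBS by 0.95 ± 0.25 log2 (adjusted p = 0.00777) and with RA/Fsk by 0.84 ± 0.25 log2 (adjusted p = 0.0442). HD minus LD was -0.88 ± 0.26 log2 (adjusted p = 0.139). The RA/Fsk call ended under 14 of 25 alternatives, among them the block on culture number (adjusted p = 0.0805) and leaving out any LD culture, with 0.0213 to 0.136 over the alternatives. The dimmer S100g probe set and that of S100a7l2, which was singled out after its values were seen, passed in 0 comparisons.

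In the RefSeq gene table of rat assembly GRCr8, S100a8 and S100a9 are direct neighbours on chromosome 2, where S100a1 and S100a4 lie in the same S100 gene cluster and S100a10 lies 87 genes from the nearest member. S100b is on chromosome 20. Of the cluster, S100a4 and S100a1 rose with FBS, and S100a8 and S100a9 did not pass.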

How the data were processed

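RNA was measured on 20 rat oligonucleotide arrays of 8799 probe sets. The deposited table holds linear intensity values; a tool, background step or probe summary is not given in the sources used here. The trimmed mean of each array, without 2% of values at each end, lies between 200.3 and 200.5, as after scaling to 1 target. Detection calls were not used here, and the number of arrays limits the precision.

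Intensities were taken as log2(intensity + 4.99), with 4.99 being 10% of the median positive value of 49.9, and arrays of a group with the same number were averaged. The 59 control probe sets were left out. All 4 groups were fitted together in limma 3.58.1 (R 4.3.3; lmFit, contrasts.fit and eBayes with an intensity trend; 10 residual degrees of freedom), with Benjamini-Hochberg adjustment over 8740 probe sets in each of 6 comparisons. The fit was tested on simulated data. Of the probe sets 7006 carry a single symbol, 308 several and 1426 none, and a gene of a list was taken at its brightest probe set.

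Members and lists were chosen with earlier results of these data known. Named were all members, up to 4 genes per list and comparison with the smallest adjusted p that passed, and the 5 nearest genes by pattern; other exceptions are marked in the text. Marker genes are named outside this rule, after their values were seen. Deviations from group means correlated at 0.108 to 0.327 between RA/Fsk and LD cultures of the same number, in each of 3 pairs. The numbers were therefore taken to pair these 2 groups. The main fit leaves this pairing out, and the block on culture number was run only as an alternative. Alternatives were quantile normalization, median centring, pseudocounts of 1 and 32, leaving out the dimmer 50% of probe sets, single arrays as samples, no intensity trend, 1 array for FBS culture 3, the block on culture number, the GAPDH ratio as a covariate, and each culture left out.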

Additional observations from a re-analysis of the deposited data

Results flagged for a closer look

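S100a1 probe set 2 had 1 RA/Fsk culture far above the rest of its group. RA/Fsk culture 1 read 103.2 units, against 74.7, 75.3 and 74.1 in the other cultures, and its gap to the nearest of them was 0.952 of the range of the group on the log2 scale, over Dixon's 95% critical value for 4 samples. Of 20 groups of 4 tested over the S100 probe sets this was 1, and chance flags about 1 in 20.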

How the results depend on the processing

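Each of the 60 S100 differences was recomputed under 25 alternatives, or 24 for the dim probe sets that the intensity filter removes. All 24 that passed kept their direction and passed under every alternative in which they were tested. Of the 36 that did not pass, 6 passed under at least 1 alternative, and 11 changed sign under at least 1 without passing in either direction.

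With each array as its own sample, 1 S100 probe set passed for HD against LD (S100b probe set 1, 0.59 log2, adjusted p = 0.041) where 0 passed with cultures, and 4 for RA/Fsk against HD where 2 did; arrays of the same culture are not independent. Leaving out 1 culture gave 2 to 3 with RA/Fsk and 7 to 8 with FBS relative to LD, 0 to 0 for HD against LD, 6 to 6 for RA/Fsk against FBS, and 2 to 3 with RA/Fsk and 7 to 7 with FBS relative to HD. S100a10 between RA/Fsk and HD (0.56 log2, adjusted p = 0.059) passed without HD culture 1 (0.0365), without RA/Fsk culture 1 (0.041) and without the dimmer probe sets (0.0394). S100a1 probe set 2 between RA/Fsk and HD passed without LD culture 4 (0.0414). With the replicate block, 3 passed for RA/Fsk against LD, the third being S100a10 at 0.57 log2; it changed no other call on the 6 genes, and ended the S100g call between RA/Fsk and LD (adjusted p = 0.0805). In the other pairs of groups same-numbered cultures correlated at -0.0853 to 0.143. The 2 pairs of HD and LD cultures were both positive, at 0.09 and 0.143, so whether these are paired cannot be told. The remaining pairs of groups had values of both signs.

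Centring shifted the overall median of FBS minus HD to -0.16 log2 (0.03 uncentred), of RA/Fsk minus FBS to 0.16 (0.06) and of HD minus LD to 0.02 (-0.08), and ended no call on the 6 genes, though it ended that S100g call. Of the 64 calls on 20 named genes of the lists, 9 ended under at least 1 alternative and 0 reversed; these were run after seeing the data. They include Capns1 with FBS (median centring, adjusted p = 0.0745) and Calr with RA/Fsk (without LD culture 3, 0.0544). Low signal limits S100b probe set 2, S100a8 and S100a9.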
